A study of Rattus norvegicus with 10 samples.

Results

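Organic osmolytes are small solutes, among them sorbitol, betaine, inositol, taurine and free amino acids, that cells of the renal medulla accumulate to balance a salty interstitium without disturbing their proteins. Sorbitol is made from glucose by aldose reductase, the product of Akr1b1, and is turned into fructose by sorbitol dehydrogenase, the product of Sord, which is abundant in liver and kidney. Hypertonicity raises aldose reductase through the transcription factor NFAT5 (TonEBP), which binds tonicity-responsive enhancers, and cells under osmotic stress also take up neutral amino acids through the sodium-coupled transporter SNAT2, the product of Slc38a2. The 3 genes examined here were taken from the deposited count table by Ensembl identifier and chromosome, under the names Akr1b1, Sord and Slc38a2, out of 32623 annotated genes. All 3 had counts and all 3 entered the comparison over 15047 tested genes.

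The animals were male rats of the outbred Sprague-Dawley strain, and whole kidneys were compared between 5 control animals with free access to water and 5 dehydrated animals that had no water for 72 hours, with the stated purpose of finding osmoregulatory genes. No age is given for the animals, and no transgene or drug is named for either group. The polyadenylated RNA of each kidney was sequenced as 1 library, and the assigned fragments per library ranged from 29454213 to 35898689. In whole kidney RNA, fewer cells of a type and less RNA per cell cannot be told apart, and cortex and medulla were not separated. Marker genes of kidney regions were not examined here, because the tables used do not pair the Ensembl identifiers with symbols. Their part in the results was not tested. The libraries numbered 6 carry in their library names the letter of the other group. They were kept in the groups of their titles, and the comparison of each member is also given without both of them.

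The spans of the first 2 genes were close to those that RefSeq gives for their names, and that of the gene listed as Slc38a2 was not. In the count table Akr1b1 (ENSRNOG00000009513) lies on chromosome 4, 61706864 to 61720956 on the minus strand of assembly Rnor_6.0, with 10 annotated exon ranges. It spans 14093 bp, against 14094 bp that RefSeq gives for Akr1b1 in assembly GRCr8, and is 1 of 2 genes with more than 3 exon ranges on its chromosome within 0.5% of that span. Sord (ENSRNOG00000017291) lies on chromosome 3, 114176309 to 114207366 on the plus strand, with 9 exon ranges, and spans 31058 bp against 31446 bp in RefSeq, a difference of -1.23%. A span alone does not identify a gene. ENSRNOG00000006653, listed under the name Slc38a2, lies on chromosome 7, 138459504 to 138512952 on the minus strand, with 18 exon ranges. It spans 53449 bp, whereas RefSeq gives 12170 bp for Slc38a2. A minus-strand gene on the same stretch of chromosome 7, ENSRNOG00000006305 (138088649 to 138100841, 16 exon ranges), spans 12193 bp. Of the 1002 genes with more than 3 exon ranges on either strand of that chromosome, it is the only 1 within 0.5% of the RefSeq span of Slc38a2. RefSeq gives spans of 69314 bp for Slc38a1, 12170 bp for Slc38a2 and 60131 bp for Slc38a4. Among minus-strand genes with 10 or more exon ranges on this stretch, the count table has genes of 64436, 12193 and 53449 bp in a row. The positions of the RefSeq genes were not compared, so their order was not tested. ENSRNOG00000006653 is therefore called by its identifier below and given no name, and ENSRNOG00000006305, which is no member and was added after its position was seen, is reported beside it.

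Dehydrated kidneys held more Akr1b1 and more ENSRNOG00000006653 than control kidneys, while no change of Sord passed the test. Genes were called at an adjusted p below 0.05 (Benjamini-Hochberg) in edgeR's quasi-likelihood test, and 2 of the 3 genes were, both higher. Of all 15047 tested genes 8.47% were called, 4.7% higher and 3.77% lower. The genes differed widely in level. Per kilobase of exon, Sord stood at 411 ± 26.4 CPM (CPM are fragments relative to the library total, scaled by TMM) in control kidneys, Akr1b1 at 36.1 ± 11.3 and ENSRNOG00000006653 at 0.208 ± 0.0349 (SD, n = 5). This order held in each of the 10 libraries, and no 2 of the 3 genes overlapped in level in either group. By mean CPM per kilobase, Sord ranked 231, Akr1b1 ranked 1629 and ENSRNOG00000006653 ranked 14340 among the 15047 tested genes.

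**Figure D1:**
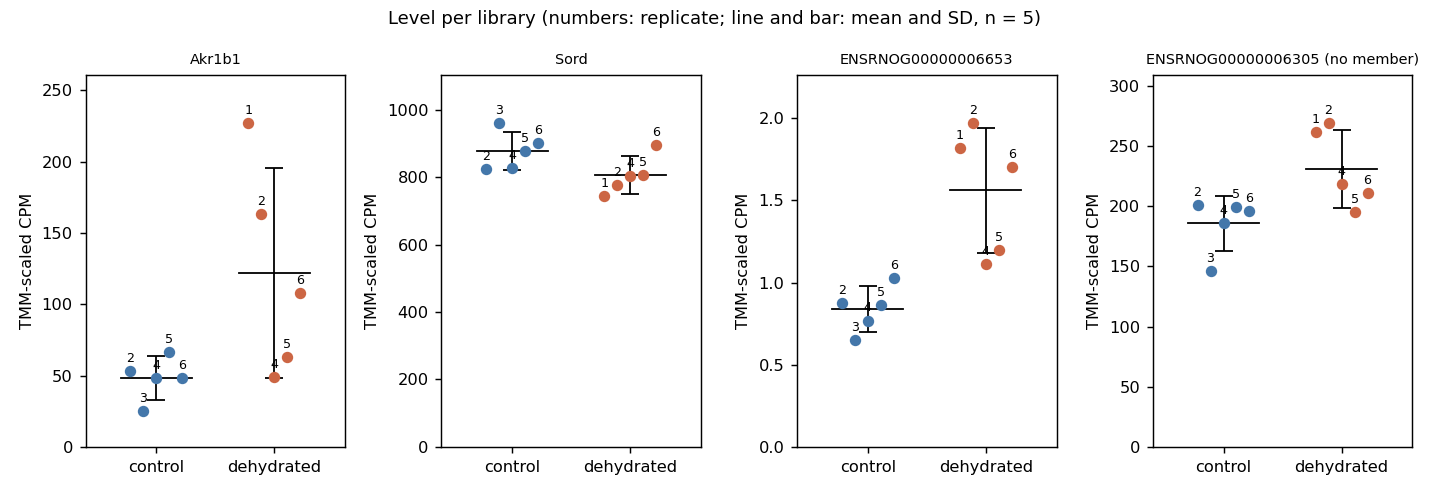
CPM of the 3 genes and of ENSRNOG00000006305 (vertical axes, from 0) in each of 5 control and 5 dehydrated libraries, with replicate numbers beside the points and the mean and SD as line and bar. Akr1b1 ranged from 48.8 to 227 CPM among dehydrated kidneys against 24.9 to 66.8 in controls, and the 2 groups do not overlap for ENSRNOG00000006653.

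Akr1b1, the enzyme that makes sorbitol, rose 2.53-fold on average, with wide differences between dehydrated animals. The control libraries numbered 2, 3, 4, 5 and 6 had 53.3, 24.9, 48.0, 66.8 and 48.4 CPM. The dehydrated libraries numbered 1, 2, 4, 5 and 6 had 227, 163, 48.8, 63.3 and 108 CPM. Replicates 1, 2 and 6 of the dehydrated group lay above every control kidney, and replicates 4 and 5 lay inside the control range. The group means were 48.3 ± 15.1 and 122 ± 73.6 CPM (SD, n = 5), and the log2 fold change was 1.34 (SE 0.37, 95% interval 0.55 to 2.13, edgeR adjusted p = 0.038). An exact two-sided permutation test of the CPM over every assignment of 5 and 5 libraries gave p = 0.0556. Among all tested genes, 97 changed by more on the log2 scale in either direction. The authors' deposited table gives Akr1b1 a log2 fold change of 1.34 (SE 0.44, adjusted p = 0.024).

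The Akr1b1 call held in only 3 of the fits that left out 1 library. With all libraries but 1, the gene kept its direction, but the edgeR adjusted p was above 0.05 without control replicate 2 (0.07), 3 (0.078), 4 (0.081) or 6 (0.079), and without dehydrated replicate 1 (0.094), 2 (0.091) or 6 (0.058). The lowest log2 fold change, 0.99, was found without dehydrated replicate 1, the kidney with the most Akr1b1. It was 1.17 without control replicate 3 and 1.21 without dehydrated replicate 2. Without control replicate 2, 4 or 6 or dehydrated replicate 6 the log2 fold change was 1.34 to 1.38, no lower than with all libraries. Fits with 1 library left out called 879 to 1382 genes in all, against 1275 with all libraries. The call held without control replicate 5 (0.033) and without dehydrated replicate 4 (0.012) or 5 (0.024). Without both libraries numbered 6 the log2 fold change was 1.37 (edgeR adjusted p = 0.11), and limma voom gave 1.18 (adjusted p = 0.075). With these 2 libraries exchanged between the groups it was 0.87 (edgeR adjusted p = 0.52), and 0 genes were called in edgeR over the whole comparison. With 1 library left out the estimate ranged from 0.99 to 1.54.

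**Figure D2:**
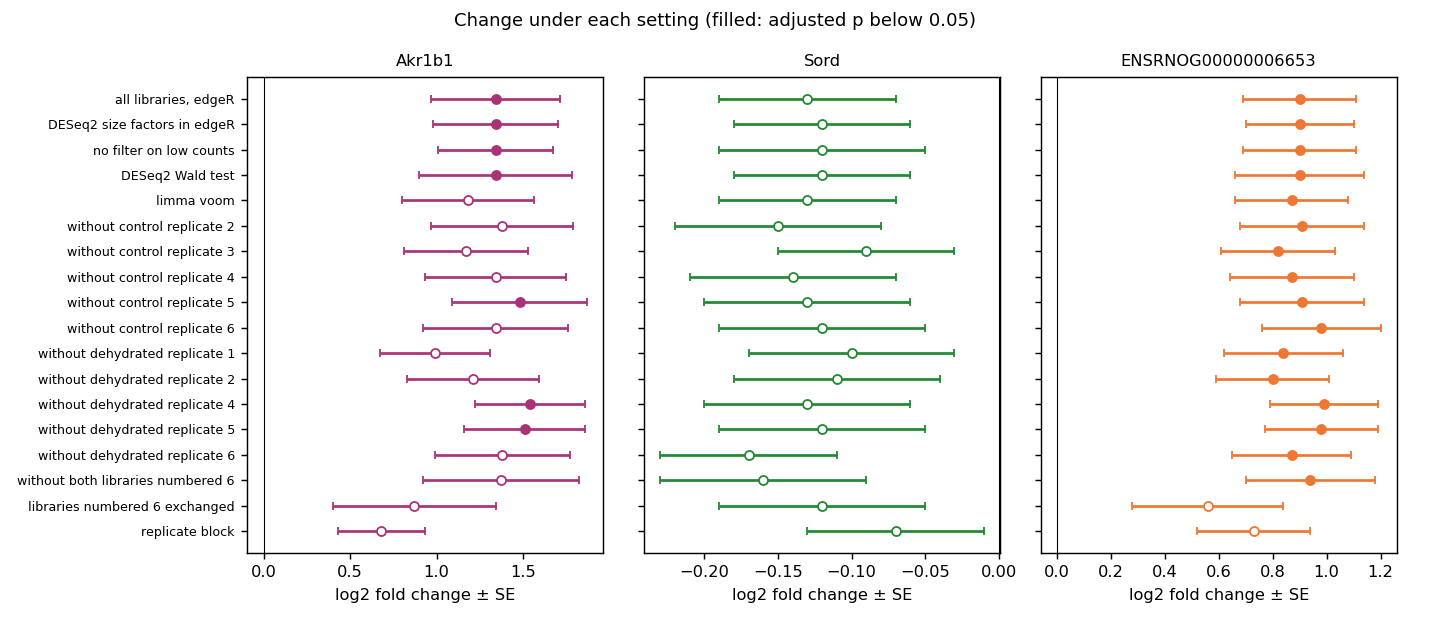
Log2 fold change, dehydrated over control (horizontal axes, which differ between panels), with its SE for Akr1b1, Sord and ENSRNOG00000006653 under each setting of the analysis. Filled points have an adjusted p below 0.05: Akr1b1 is filled without 3 of the 10 libraries in turn, Sord under no setting, and ENSRNOG00000006653 without each of the 10 libraries in turn.

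Few genes of similar abundance varied as much between animals of a group as Akr1b1. The edgeR estimate of its coefficient of variation between animals was 39%, against a median of 7.77% among the 201 genes nearest in mean CPM, Akr1b1 included. Only 1 of these 201 genes had a higher value. The highest dehydrated library held 4.65 times the Akr1b1 of the lowest, and the highest control library held 2.68 times that of the lowest. For Sord the coefficient was 7.83% (median of the genes nearest in level 8.69%) and for ENSRNOG00000006653 it was 17.8% (median 19%), so both varied about as much as genes of their level. 

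**Figure D3:**
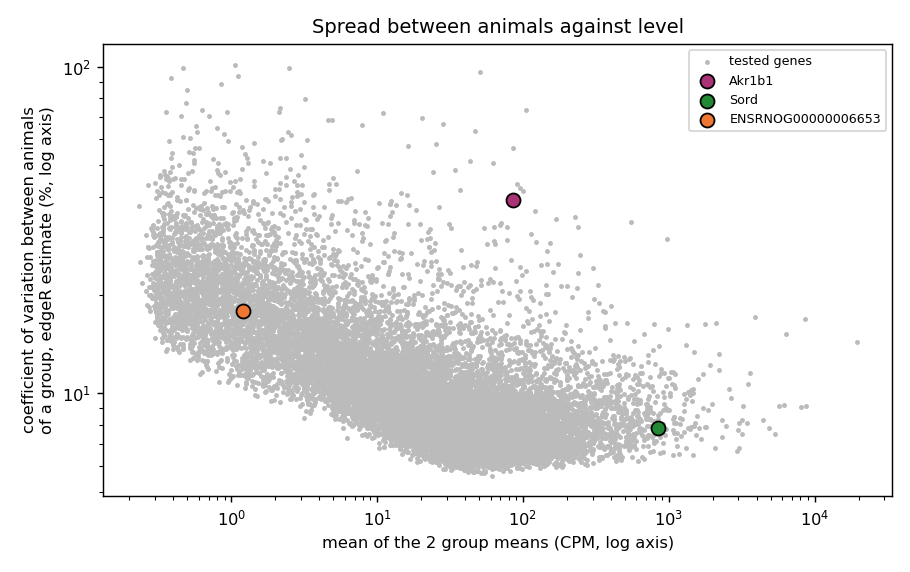
Coefficient of variation between animals of a group as estimated by edgeR (vertical log axis, %) against mean level (horizontal log axis, CPM) for all 15047 tested genes in grey, with the 3 genes in color. Akr1b1 stands at 39%, high above the bulk of genes of its level, while Sord (7.83%) and ENSRNOG00000006653 (17.8%) lie within it.

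The dehydrated kidney with the least Akr1b1 was also the one that shifted least over the other changed genes. A score over the genes called without a given library, the 3 members and ENSRNOG00000006305 left out, placed the mean of the remaining controls at -1 and that of the remaining dehydrated kidneys at 1. Dehydrated replicate 4, with 48.8 CPM of Akr1b1, scored 0.48, and replicate 5, with 63.3 CPM, scored 0.773. Replicates 1, 6 and 2 scored 0.885, 0.903 and 1.1. The 2 dehydrated kidneys inside the control range of Akr1b1 thus had the lowest scores of their group. Both still stood above the highest control, replicate 5 at -0.385, which also had the most Akr1b1 of its group. The order was not the same throughout, since dehydrated replicate 1 had the most Akr1b1 and not the highest score, and the lowest control in Akr1b1, replicate 3, scored -0.934 among controls at -1.11 to -0.385. What the score has to do with Akr1b1 was not tested.

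The gene whose pattern was most like Akr1b1 over the 10 libraries was a single-exon gene on the same chromosome. ENSRNOG00000023285 (chromosome 4, 148951616 to 148952561, minus strand, 1 exon range of 946 bp) followed Akr1b1 with Pearson's r of 0.996 in log2 CPM over 10 libraries, the highest of the 12549 genes that averaged 2 CPM or more. The r of deviations from the group means was 0.994, and the libraries share the treatment groups and their depth. Its fragments amounted to 16.5% to 20% of those of Akr1b1 in every library (mean 18.8% ± 1.1, SD, n = 10), although Akr1b1 itself ranged 9.11-fold. It averaged 9.08 ± 2.9 CPM in control and 23.2 ± 14.6 CPM in dehydrated kidneys (SD, n = 5; log2 fold change 1.35, edgeR adjusted p = 0.044). Whether the 2 genes share sequence or exchange fragments was not tested. With its fragments added to Akr1b1, an alternative chosen after seeing the data, the log2 fold change of Akr1b1 was 1.34 (edgeR adjusted p = 0.039). The next most similar genes after it (r of 0.984 and 0.967) also lay on chromosome 4, which held 6.34% of the genes compared. Of the 20 most similar genes, these 3 were on that chromosome. The gene at r = 0.984 was called higher (log2 fold change 1.6, edgeR adjusted p = 0.022). The gene at r = 0.967, which also has 1 exon range, was not called (0.67, edgeR adjusted p = 0.16).

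Sord, the enzyme that removes sorbitol, was among the abundant genes of the kidney and differed little between the groups. Control replicates 2, 3, 4, 5 and 6 had 825, 960, 827, 876 and 900 CPM, and dehydrated replicates 1, 2, 4, 5 and 6 had 745, 776, 803, 806 and 895 CPM. Of the dehydrated kidneys 4 lay below the lowest control, and replicate 6 lay inside the control range. The means were 878 ± 56.4 and 805 ± 56.0 CPM (SD, n = 5), and the log2 fold change was -0.13 (edgeR adjusted p = 0.29, SE 0.06). The 95% interval of the log2 fold change ran from -0.26 to 0.01, so the data leave room for a fall of that size and for no change. The exact two-sided permutation test gave p = 0.0556. Without both libraries numbered 6 the log2 fold change was -0.16 (edgeR adjusted p = 0.21). In the authors' deposited table Sord has a log2 fold change of -0.12 (SE 0.07, adjusted p = 0.25). The gene most like Sord over the 10 libraries, ENSRNOG00000011747 (chromosome 8, 22932175 to 22937909, minus strand, 4 exon ranges), had 98.5 ± 9.28 CPM in control and 82.6 ± 9.23 CPM in dehydrated kidneys (SD, n = 5; r = 0.952, and 0.931 for deviations from the group means; edgeR adjusted p = 0.084).

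**Figure D4:**
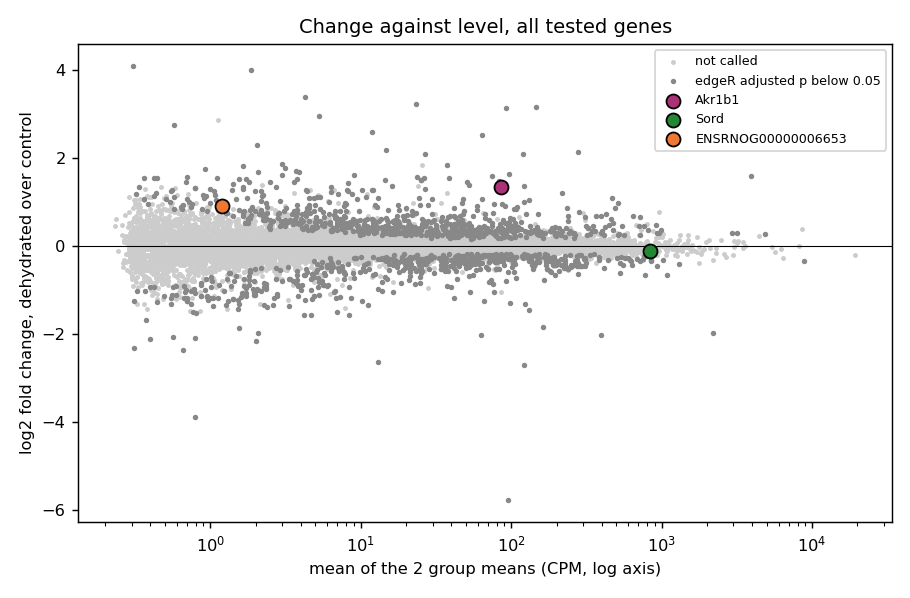
Log2 fold change, dehydrated over control (vertical axis), against mean level (horizontal log axis, CPM) for all 15047 tested genes, with called genes in darker grey and the 3 genes in color. Akr1b1 (1.34) and ENSRNOG00000006653 (0.90) lie above 0 among called genes at very different levels, and Sord (-0.13) lies near 0.

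The start of Sord is shown because RefSeq holds a promoter entry for this member and its span is near that of RefSeq. The RefSeq table of promoters, each 250 bases before and 50 after a start in assembly GRCr8, holds an entry under the symbols of 2 of the 3 genes, Sord and Slc38a2, and the second was set aside with its name. The 300 bases of Sord hold the GC box GGGCGG, the site of Sp family factors, in 2 places, both as its reverse complement CCGCCC, in capitals below. Each is given in 30 bases of the plus strand, 5′ to 3′, the first 60 to 31 bases and the second 30 to 1 bases before the start.
Sord chr3:129638608-129638637: agcgcacaggccCCGCCCcgggcccgcgct
Sord chr3:129638638-129638667: ttgccgtcttcaggctCCGCCCctgcccct
A GC box on either strand was found in 33.1% of 33469 promoters of this length. The letters TGGAAA, with which the consensus of the tonicity-responsive enhancer begins, were searched on both strands and were not in the 300 bases of Sord. They were found in 22.7% of all promoters, and the full consensus, which contains them, in 5.98%. A match describes the letters only, and their absence says nothing of NFAT5 outside this window.

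The ratio of Akr1b1 to Sord was above every control in 4 of the 5 dehydrated kidneys. Per kilobase of exon, control kidneys held 8.9 ± 2.99 units of Akr1b1 RNA for every 100 of Sord, and dehydrated kidneys 24.8 ± 16.2 (SD, n = 5). Control replicates 2, 3, 4, 5 and 6 had 10.3, 4.14, 9.28, 12.2 and 8.58, and dehydrated replicates 1, 2, 4, 5 and 6 had 48.6, 33.6, 9.7, 12.5 and 19.4. In every kidney Sord RNA thus remained more abundant per length than Akr1b1 RNA. Dehydrated replicate 4 stood inside the control range of the ratio and replicate 5 just above it. The kidney with the least Akr1b1, control replicate 3, had the most Sord of its group, and the kidney with the most Akr1b1, dehydrated replicate 1, had the least. This opposite order did not hold throughout. Dehydrated replicate 6, at 108 CPM of Akr1b1 above every control, had the most Sord of its group (895 CPM). Dehydrated replicate 4, with the least Akr1b1 of its group (48.8 CPM), had 803 CPM of Sord. The mean log2 ratio was higher by 1.31 in dehydrated kidneys, by 1.00 without dehydrated replicate 1 and by 1.34 without both libraries numbered 6. No test is given for the ratio, which was formed from genes chosen with earlier results known.

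**Figure D5:**
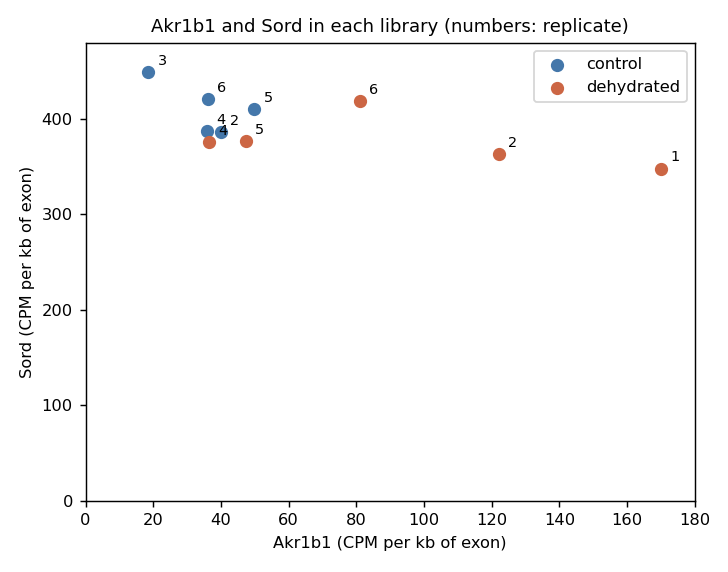
Akr1b1 (horizontal axis) and Sord (vertical axis) in CPM per kilobase of exon in each library, control in blue and dehydrated in orange, with replicate numbers. The dehydrated replicates 1, 2 and 6 lie to the right at 81.1 to 170 CPM per kilobase of Akr1b1, while Sord stays between 348 and 449 in all 10 libraries.

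ENSRNOG00000006653, the gene listed as Slc38a2, rose 1.86-fold from a very low level. The control libraries numbered 2, 3, 4, 5 and 6 had 29, 20, 27, 30 and 30 fragments, and the dehydrated libraries numbered 1, 2, 4, 5 and 6 had 64, 65, 33, 44 and 51. Counting error alone gives the lowest count of 20 an exact 95% Poisson interval of 12.2 to 30.9 and the highest of 65 an interval of 50.2 to 82.8. In CPM, controls ranged from 0.65 to 1.03 and dehydrated kidneys from 1.11 to 1.97, and the groups did not overlap. Of all tested genes 7.87% had groups that did not overlap. The means were 0.837 ± 0.14 and 1.56 ± 0.382 CPM (SD, n = 5), with a log2 fold change of 0.90 (SE 0.21, 95% interval 0.46 to 1.34, edgeR adjusted p = 0.015). The exact two-sided permutation test gave p = 0.0079, the smallest that groups of 5 and 5 allow. With each library left out in turn the call held in 10 of 10 fits (log2 fold change 0.80 to 0.99, edgeR adjusted p 0.0095 to 0.045), and without both libraries numbered 6 the log2 fold change was 0.94 (edgeR adjusted p = 0.039). With these 2 libraries exchanged between the groups, as the letters in their names would have it, it was 0.56 and the call was lost (edgeR adjusted p = 0.49). That exchange left 0 genes called in edgeR over the whole comparison, so the loss is not particular to this gene. The authors' deposited table gives 0.90 (SE 0.24, adjusted p = 0.0028).

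The dehydrated kidneys highest in Akr1b1 were also the highest in this gene, with replicates 1, 2 and 6 at 1.82, 1.97 and 1.7 CPM and replicates 4 and 5 at 1.11 and 1.2 CPM. Replicates 6 and 5 had 51 and 44 fragments, with exact 95% Poisson intervals that overlap (38 to 67.1 and 32 to 59.1). Replicates 1, 2 and 6 also had the highest scores of their group over the other changed genes. The gene most like it, ENSRNOG00000050922 (chromosome 1, 198043073 to 198045154, minus strand, 3 exon ranges), also rose, with 13.1 ± 4.25 CPM in control and 36.8 ± 13.4 CPM in dehydrated kidneys (SD, n = 5; log2 fold change 1.49, edgeR adjusted p = 0.0041). Their r was 0.977 in log2 CPM over 10 libraries and 0.926 for deviations from the group means.

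ENSRNOG00000006305, the gene whose span is that of Slc38a2 in RefSeq, was far more abundant and its difference did not pass the test. Control replicates 2, 3, 4, 5 and 6 had 201, 146, 186, 199 and 196 CPM, and dehydrated replicates 1, 2, 4, 5 and 6 had 262, 269, 218, 195 and 211 CPM. Replicates 1, 2, 4 and 6 of the dehydrated group lay above every control, and replicate 5 lay inside the control range. The means were 186 ± 23.0 and 231 ± 32.5 CPM (SD, n = 5), and the log2 fold change was 0.31 (SE 0.10, 95% interval 0.09 to 0.54, edgeR adjusted p = 0.085; exact permutation p = 0.0317). The call changed with the method: a DESeq2 Wald test of the counts gave 0.31 (adjusted p = 0.033) and the authors' deposited table gives 0.32 (SE 0.11, adjusted p = 0.034). In edgeR the gene was also called without dehydrated replicate 5 (log2 fold change 0.37, adjusted p = 0.05 after rounding, just under the threshold), and without both libraries numbered 6 it was not (0.36, adjusted p = 0.11). Per kilobase of exon it stood at 40.1 ± 4.95 CPM in control kidneys (SD, n = 5), close to Akr1b1 at 36.1 ± 11.3, against 0.208 ± 0.0349 for ENSRNOG00000006653. Which of these 2 rows is read as Slc38a2 therefore sets both the level and the size of the difference: a 1.86-fold rise that passed the edgeR test, or a 1.24-fold higher mean that did not.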

How the data were processed

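The authors deposited unnormalised fragment counts per Ensembl gene, made with featureCounts 1.6.2 on trimmed, Rsubread-aligned paired-end reads counted on the reverse strand (setting 2) in Rnor_6.0 with Ensembl release 103, per the file headers. For the aligner, a version is not given in the sources used here. Per the submitters' processing notes DESeq2 was used, and the authors' deposited table gives log2 fold changes with SE, p-values, adjusted p-values and a mean normalised signal. Its 10 columns of values per library were not used.

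Groups follow the sample titles. The main test was edgeR 4.0.16 (glmQLFit, glmQLFTest) in R 4.3.3 on all genes that passed filterByExpr (at its defaults of count 10 and total 15), with TMM scaling and no covariate. Library totals were 29454213 to 35898689. The spread between 5 animals a group limits precision, and intervals from counts cover counting error only. The SE is the absolute log2 fold change divided by the square root of F. Likeness was measured on log2 CPM (prior count 2), and the most similar gene of each member is printed. Replicate libraries were distinct (chi-square per degree of freedom 13.3 to 32 in 20 pairs). Alternatives were DESeq2 1.42.0, limma 3.58.1 voom, other scaling, no filter, left-out or exchanged libraries, and a replicate block. The tests were checked on counts simulated from the levels of these data and the spread that edgeR estimated. Such counts follow edgeR's model, so the check says nothing of genes that depart from it. The members, lists and rules were chosen with earlier results of these data known. A planned list of 42 related genes and the planned kidney markers were not analysed here, since the RefSeq table (GRCr8) pairs 0 Ensembl identifiers with symbols.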

Additional observations from a re-analysis of the deposited data

Results flagged for a closer look

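The control kidney numbered 3 had 146 CPM of ENSRNOG00000006305, while the other control kidneys had 186 to 201 CPM. The distance from the nearest control took up more of the spread of the group than Dixon's limit allows (ratio 0.718, critical value 0.71). The same kidney had the lowest Akr1b1, the lowest ENSRNOG00000006653 and the highest Sord of its group. Such a gap was found in 1 of 10 groups of 5 values, and chance alone flags 1 in 20.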

How the results depend on the processing

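Akr1b1 kept its direction under all 18 alternatives and its call under 7. The log2 fold change was 0.99 to 1.54 with 1 library left out, 1.18 in limma voom and 1.37 without both libraries numbered 6. It was 0.87 with these 2 exchanged between the groups (edgeR adjusted p = 0.52) and 0.68 with the replicate block (edgeR adjusted p = 0.19). The block compares only the 4 replicate numbers found in both groups. Control replicate 3 (24.9 CPM of Akr1b1) and dehydrated replicate 1 (227 CPM) have no partner, so they do not inform any difference given with the block. Sord passed the threshold under none of 17 alternatives (-0.17 to -0.07). ENSRNOG00000006653 kept its call under 15 of 17 and lost it with the libraries exchanged (0.56, edgeR adjusted p = 0.49) and with the replicate block (0.73, edgeR adjusted p = 0.092). The mean log2 ratio of Akr1b1 to Sord was higher in dehydrated than in control kidneys by 0.84 to 1.58 under its 13 alternatives. Over all genes 1275 were called, 763 with the replicate block and 0 with the libraries exchanged in edgeR, where 1654 had an unadjusted p below 0.05. The exchange gave 98 genes in DESeq2 and 0 in limma voom. It mixes the treatments if the titles are right. On the score over the other changed genes, control replicate 6 stood at -0.859 and dehydrated replicate 6 at 0.903. Each was near the mean of the group in its title. Each score was formed with the other library numbered 6 in its titled group, and which label is right was not tested. The deviations of same-numbered libraries correlated at -0.065 to 0.166 (r above 0.1 in 1 of 4 pairs), and no label explains the numbers. With 20 to 65 fragments a library, ENSRNOG00000006653 is the member most limited by depth.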

Other observations

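The genes lying next to the 3 members are given beside all tested genes, of which 8.47% were called; no test was run. Of the 10 tested genes nearest on each side of Akr1b1, 2 of 20 were called higher and 0 lower by edgeR, with log2 fold changes of -0.36 to 0.46 (median 0.07). Around Sord 0 of 20 were called higher and 1 lower, at -1.98, and the others lay between -0.31 and 0.32. Around ENSRNOG00000006653 2 of 20 were called higher and 1 lower (-0.20 to 0.80, median 0.08). The farthest neighbours lay 770 to 3512 kb away.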
